A study of Mus musculus with 12 samples.

Results

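The genes of the cytosolic ribosomal proteins were followed across 12 RNA-seq libraries of PB3 mouse breast cancer cells. Members were all genes of the deposited tables whose mouse symbol starts with Rpl or Rps and a digit, together with Rplp0, Rplp1, Rplp2 and Rpsa. Names ending in -ps (300 genes), the Rps6k kinases (10 genes) and 7 further names annotated as pseudogenes were left out, and no antisense name was found. The rule left 86 of 55573 genes. Of these, 77 form the core set, with 43 proteins of the large subunit, 31 of the small subunit and 3 of the stalk. The other 9 are paralogs of core genes and Rps19bp1, a protein that binds the ribosomal protein Rps19 and is not itself part of the ribosome.

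The study compared lines selected on 3 drugs that act on microtubules with the untreated parental line, with 3 libraries each. ERI-R cells were selected on eribulin (spelled Erubilin in the sample labels), PAC-R cells on paclitaxel and VIN-R cells on vinorelbine. Each drug was given at 300 nM, 500 nM and 800 nM, and Control is the untreated line PB3-Parental. All 4 lines are labelled Er-/Pr-/Her2-, meaning that they lack the oestrogen receptor, the progesterone receptor and Her2. The labels speak of resistant clones and do not say how many clones a line holds or whether the 3 replicates of a line were grown apart, so the p-values measure the spread between these libraries, which may be technical.

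Ribosomal proteins assemble with ribosomal RNA into a small subunit, which decodes the messenger RNA, and a large subunit, which joins amino acids. Their genes are among the most highly transcribed of a growing cell and sit on many chromosomes, although the proteins are needed in equal amounts. Their messenger RNAs typically start with a C followed by a run of pyrimidines, a feature through which the kinase complex mTORC1 and the protein LARP1 control how much they are translated.

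Promoters were read because the members share these features. RefSeq start sites (build GRCm38.p6) were matched for 66 of the 86 members. A C at the listed start followed by 4 bases that are C or T stood at the start of 14 members (21.2%), against 3.01% of 27025 genes of the table. The hexamer CCGGAA, searched on both strands from 250 bases before to 50 after the start, was found in 54.5% of the members and 16.7% of all genes. CTTTCC on the gene strand within 50 bases of the start was present in 31.8% of members and 5.43% of genes, and TATAAA, on either strand of the longer window, in 10.6% of members and 15.7% of genes. The windows below run from 60 bases before the start to 20 after it, on the gene's strand, and are shown for the first listed start of 4 genes whose level or part of the pool stood apart in ERI-R cells and of Rpsa, which was not called. Capitals mark CCGGAA or its complement TTCCGG.
Rpl38 (chr11:114668520-114668599, plus strand): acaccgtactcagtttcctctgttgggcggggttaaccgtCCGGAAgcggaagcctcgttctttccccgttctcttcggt
Rps27l (chr9:66946026-66946105, plus strand): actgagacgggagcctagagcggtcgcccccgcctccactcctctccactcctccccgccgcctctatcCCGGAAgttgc
Rpl15 (chr14:18270967-18271046, minus strand): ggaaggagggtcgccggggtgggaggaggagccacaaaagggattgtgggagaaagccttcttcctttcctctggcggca
Rpl22 (chr4:152325666-152325745, plus strand): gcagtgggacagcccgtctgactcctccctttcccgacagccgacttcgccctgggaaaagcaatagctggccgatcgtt
Rpsa (chr9:120127706-120127785, plus strand): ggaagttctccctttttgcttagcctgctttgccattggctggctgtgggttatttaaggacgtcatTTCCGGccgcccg
The hexamer is in the printed windows of Rpl38, Rps27l and Rpsa and not in those of Rpl15 and Rpl22. Rpl38 and Rpl15 have the C and 4 pyrimidines at the listed start, and the other 3 do not.

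The libraries held 11141028 to 13454395 expected counts, and 83 of the 86 members could be tested. Rpl10l had 0 counts in every library, which allows up to 0.269 CPM (counts scaled to library size) at the lowest depth, and Rpl39l and Rpl3l had at most 7 counts in any library. The libraries differed in a way the groups do not give. Lyz2, a lysozyme gene of macrophages, was at 0 in ERI-R 3, PAC-R 3, VIN-R 3 and Control 1 and between 182 and 1271 CPM in the other 8 libraries. All 10 macrophage markers examined were detected in those 8. Their summed level was 3.05 to 1194 CPM in ERI-R, 3.30 to 3300 CPM in PAC-R, 1.94 to 3231 CPM in VIN-R and 1.19 to 1935 CPM in Control libraries. The 4 libraries without Lyz2 also had no counts of C1qa, C1qb, Adgre1, Tyrobp and Aif1, and Cd68 was at 1.11 to 2.47 CPM there. In such bulk samples fewer cells of a type and less RNA per cell cannot be told apart. The 4 also carried the lowest shares of mitochondrially encoded transcripts, 1.503% to 2.45% of counts against 3.22% to 4.35% in the other 8. The ERI-R line also differed in the markers of its own cell type: 3 of 5 epithelial markers (Cdh1, Epcam and Krt14) were called higher than in Control and 3 of 3 mesenchymal markers lower, where 9.51% of all genes were called higher and 9.69% lower. The other 2 epithelial markers, Krt8 and Krt18, were at -0.79 and -1.19 and not called. Cdh1 (E-cadherin) was higher by 4.48 on the log2 scale and Vim (vimentin) fell by 4.23, with adjusted p of 0.0028 and 0.0036 in edgeR's quasi-likelihood test.

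The share of all counts that fell on the 86 genes varied widely within groups. It was 3.91%, 5.22% and 16.8% in the ERI-R libraries, 4.03%, 4.89% and 9.04% in those of PAC-R, 6.52%, 3.85% and 6.90% in VIN-R and 5.79%, 4.56% and 4.84% in Control. In each of the 4 groups the highest share belonged to the library without Lyz2, and ERI-R 3 stood above all others. The means were 8.63% ± 7.08 for ERI-R, 5.99% ± 2.68 for PAC-R, 5.76% ± 1.66 for VIN-R and 5.06% ± 0.646 for Control (SD, n = 3 each). The differences from Control of 3.57, 0.926 and 0.694 percentage points had exact two-sided permutation p of 0.8, 0.8 and 0.5, and 0.9 after adjustment over 6 comparisons. With 3 libraries a group this test cannot go below 0.1. Without ERI-R 3 the ERI-R difference became -0.499 points, and without PAC-R 3 the PAC-R difference became -0.600 points. The VIN-R difference was 0.124 points without VIN-R 3 and 1.65 without VIN-R 2. Over the 8 libraries with Lyz2 the ranges were 3.91% to 5.22% in ERI-R, 4.03% to 4.89% in PAC-R, 3.85% to 6.52% in VIN-R and 4.56% to 4.84% in Control. On the length-corrected TPM scale the members made up 12.5%, 15.6% and 33.5% of the sum in ERI-R, against 18.1%, 13.9% and 15.1% in Control.

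**Figure D1:**
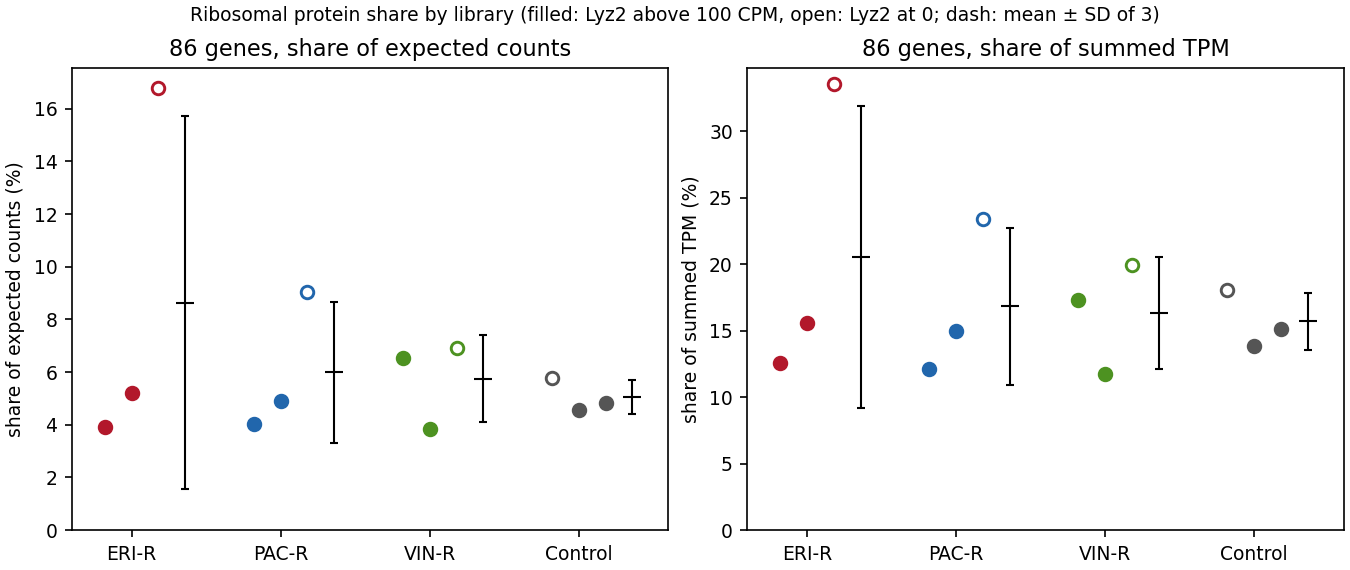
Share of expected counts (left, percent) and of summed TPM (right, percent) held by the 86 ribosomal protein genes in each library, with the group mean and SD of 3 libraries beside the points. The open points, libraries with Lyz2 at 0, are the highest of each group, and ERI-R 3 stands at 16.8% of counts and 33.5% of TPM.

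The high share of ERI-R 3 did not belong to the ribosomal protein genes alone. Other protein-coding genes under 1000 bases (3172 genes) held 10.7% of its counts, against 4.10% to 7.41% in the other 11 libraries, and the 78 mitochondrial ribosomal protein genes held 0.692%, against 0.175% to 0.343%. Gm42418, which overlaps ribosomal RNA sequence, took 3.40% of its counts, against 0.517% to 1.96% elsewhere. Its mean fragment length of 180 bases was the shortest of the 12, whose longest was 206. The members are short, with a median transcript length of 683 bases against 2430 over all genes tested. The part of fragment length, RNA quality and macrophage RNA in these shares was not tested.

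The members moved together from library to library. Every one of the 77 core genes was higher in ERI-R 3 than in both other ERI-R libraries, against 32.4% of all genes tested, and every one was higher in PAC-R 3 than in both other PAC-R libraries, against 44.1%. In VIN-R 3 it was 45 of 77 core genes (background 41.4%), and in Control 1 it was 63 of 77 (background 41.5%). The median difference between the library without Lyz2 and the mean of the other 2 of its group was 1.96 in ERI-R, 0.98 in PAC-R, 0.42 in VIN-R and 0.28 in Control on the log2 CPM scale, against -0.44, -0.0073, 0.032 and 0.012 over all genes tested. Across the 77 genes this difference was larger for genes with more G and C in their longest listed transcript, with Pearson's r of 0.47, 0.54, 0.47 and 0.41. With the log2 of transcript length r was -0.52 in ERI-R and between -0.16 and 0.05 in the other groups. These are descriptions across genes that share libraries, and genes are not independent replicates.

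**Figure D2:**
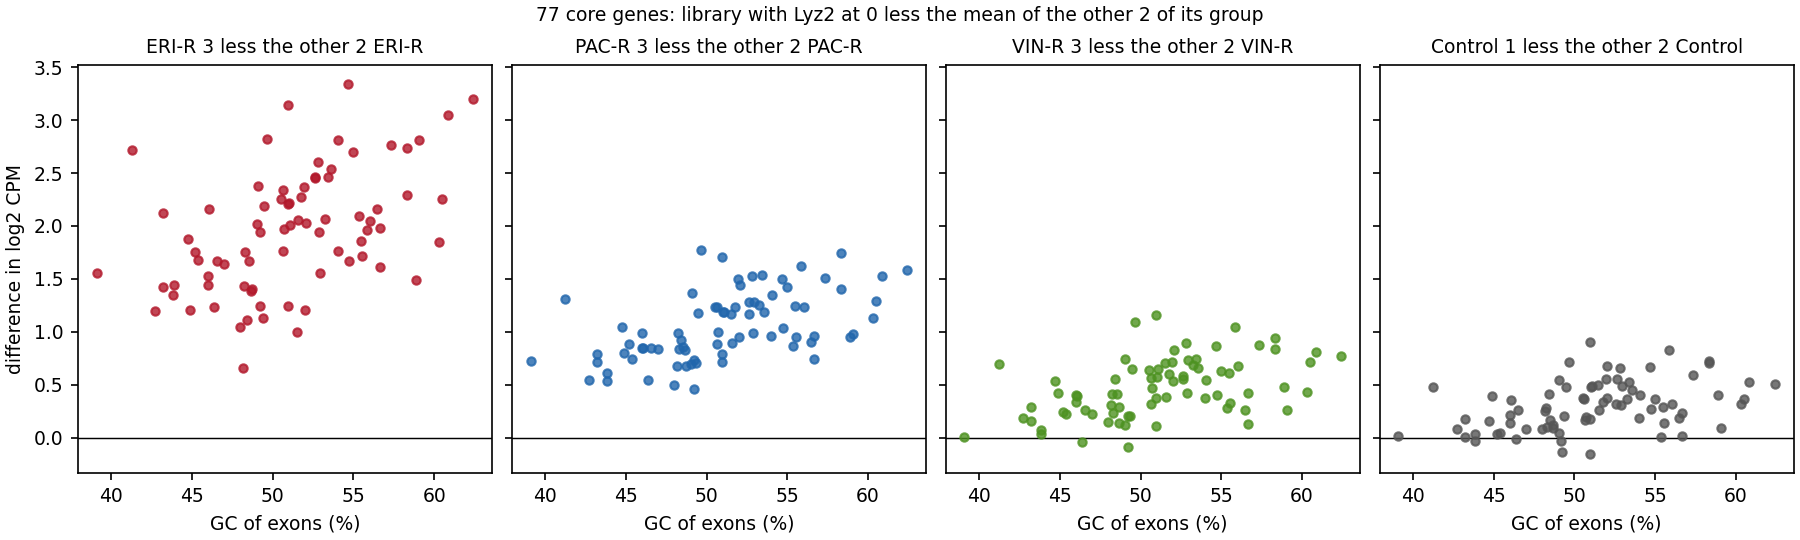
Each point is 1 of the 77 core genes. The x axis, labelled GC of exons, gives the GC content of the gene's longest listed transcript (percent). The y axis gives the gene's log2 CPM in the library with Lyz2 at 0 less the mean of the other 2 libraries of that group. All 77 points lie above 0 for ERI-R 3 and PAC-R 3, with medians of 1.96 and 0.98, and the cloud slopes upwards in each panel.

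Gene by gene, 3 of 83 members were called higher in ERI-R than in Control cells and none lower, at an adjusted p under 0.05 in edgeR's quasi-likelihood test. Over all 14226 genes tested, 19.2% were called, 9.51% higher and 9.69% lower, and the members' count was below that share. The 3 were Rpl21 and Rpl38, both proteins of the large subunit, and Rps27l, a paralog of the small-subunit protein Rps27 that is known in human cells as a target gene of p53. Against PAC-R cells the same 3 genes were called higher (background 18.7%, with 9.19% higher and 9.55% lower), and against VIN-R cells Rpl21 and Rpl38 (background 19.3%, with 9.55% higher and 9.74% lower). The 3 comparisons share the ERI-R libraries, so their calls are not independent. Counts of calls depended on single libraries. ERI-R against Control gave 8 calls without ERI-R 1, 1 without Control 1, 1 without Control 2 and 0 without Control 3, where 19.7%, 12.8%, 13.6% and 12.6% of all genes were called. It gave 0 when only the libraries of both groups were fitted (12.8% of all genes). Without ERI-R 3 the calls were Rpl21 and Rps27l, higher, and Rpl22, lower (19.3% of all genes). With the replicate number as a block, ERI-R against PAC-R kept Rpl21 (edgeR adjusted p = 0.028) and lost Rpl38 and Rps27l (0.074 and 0.070), with 18.3% of all genes called. DESeq2 called 6 members (Rpl15, Rpl36a and Rps24 beside the 3; background 13.3%).

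No member passed the test for PAC-R against Control, VIN-R against Control or PAC-R against VIN-R with edgeR, where the background was 0 of 14226 genes. No member had an unadjusted p under 0.05 in these, against 245, 381 and 156 of all genes, and DESeq2 called no member and 22, 34 and 3 genes in all. The median log2 fold change of the members was 0.82 in ERI-R against Control, 0.30 in PAC-R and 0.22 in VIN-R, against medians near 0 (-0.0044, 0.054 and 0.041) over all genes. It was positive in ERI-R for 82 of 83 members. That direction rested on ERI-R 3: without it the median was -0.28, with 16 of 83 positive, and over the 8 libraries with Lyz2 it was -0.24, with 19 of 83 positive. The PAC-R median was -0.093 without PAC-R 3, and the VIN-R median was 0.077 without VIN-R 3 and 0.42 without VIN-R 2. By role, the ERI-R medians were 0.88 for the large subunit, 0.73 for the small subunit and 1.32 for the stalk.

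Rpl21 is a large-subunit protein whose gene lies on chromosome 5 at 146832890 to 146837032 of GRCm38. It had 1676, 2420 and 7741 CPM in ERI-R cells, 624, 766 and 1147 CPM in PAC-R, 943, 585 and 856 CPM in VIN-R and 693, 699 and 719 CPM in Control. All 3 ERI-R libraries were above all 9 others. Its log2 fold change in ERI-R was 2.59 ± 0.61 (SE) against Control, 2.28 ± 0.60 against PAC-R and 2.38 ± 0.61 against VIN-R, with edgeR adjusted p of 0.013, 0.023 and 0.018. Over the 8 libraries with Lyz2 it was 1.42 against Control with an edgeR adjusted p of 0.015, where 12% of 14388 genes were called higher. Without Control 3 its edgeR adjusted p was 0.052. The call against PAC-R was lost without PAC-R 1 or PAC-R 2, and the call against VIN-R without any single VIN-R library. When only the libraries of both groups were fitted, Rpl21 was called in none of these comparisons.

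Rpl38, a large-subunit protein whose loss in mice alters the translation of Hox messenger RNAs, lies on chromosome 11 at 114668524 to 114672331. It had 364, 615 and 3325 CPM in ERI-R cells, 191, 213 and 398 CPM in PAC-R, 333, 172 and 287 CPM in VIN-R and 212, 202 and 196 CPM in Control. The ERI-R libraries were above all Control libraries, but ERI-R 1 lay below PAC-R 3. The log2 fold change was 2.97 ± 0.81 against Control, 2.53 ± 0.80 against PAC-R and 2.56 ± 0.80 against VIN-R, with edgeR adjusted p of 0.026, 0.050 (just under the threshold) and 0.046. Its size rested on ERI-R 3: without that library the fold change against Control was 1.22 and the edgeR adjusted p 0.050, just past the threshold, and over the 8 libraries with Lyz2 it was 1.19 with 0.053. Without any 1 of the Control libraries the adjusted p lay between 0.076 and 0.093.

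Rps27l, on chromosome 9 at 66946086 to 66949516, had 161, 329 and 472 CPM in ERI-R cells, 102, 114 and 149 CPM in PAC-R, 180, 106 and 127 CPM in VIN-R and 110, 110 and 111 CPM in Control. ERI-R 1 lay below VIN-R 1, and all ERI-R libraries were above all Control libraries. The log2 fold change was 1.58 ± 0.43 against Control (edgeR adjusted p = 0.026), 1.38 ± 0.43 against PAC-R (0.046) and 1.22 ± 0.43 against VIN-R (0.074). The call against Control was lost without any 1 of the Control libraries (edgeR adjusted p of 0.068 to 0.087), over the 8 libraries with Lyz2 (1.04, adjusted p = 0.091) and with libraries scaled to the core total (1.01, adjusted p = 0.21). With both choices joined, the 8 libraries with Lyz2 scaled to the core total, Rps27l was called higher than in Control, beside Rpl21 and Rpl38. There 15.6% of all genes were called. Against PAC-R the Rps27l call was lost without any 1 library other than ERI-R 1, with edgeR adjusted p of 0.074 to 0.15. Without ERI-R 3 the fold change against PAC-R was 0.91.

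Because the whole set rose and fell between libraries, each gene's part of the core set's counts was also taken. With log2 CPM centred on each library's mean over the 77 genes, the median gene's SD over the 12 libraries was 0.22, against 0.64 without centring. Among the steadiest core genes were Rpl6, Rpl11, Rpl31 and Rps13, with SDs of 0.051 to 0.097, and the least steady were Rpl21, Rpl38, Rpl22, Rpl36a and Rpl39, with SDs of 0.45 to 0.79. Rpl6, a large-subunit protein, kept 1.90%, 2.08% and 2.08% of core counts in ERI-R and 1.97%, 2.16% and 2.10% in Control.

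**Figure D3:**
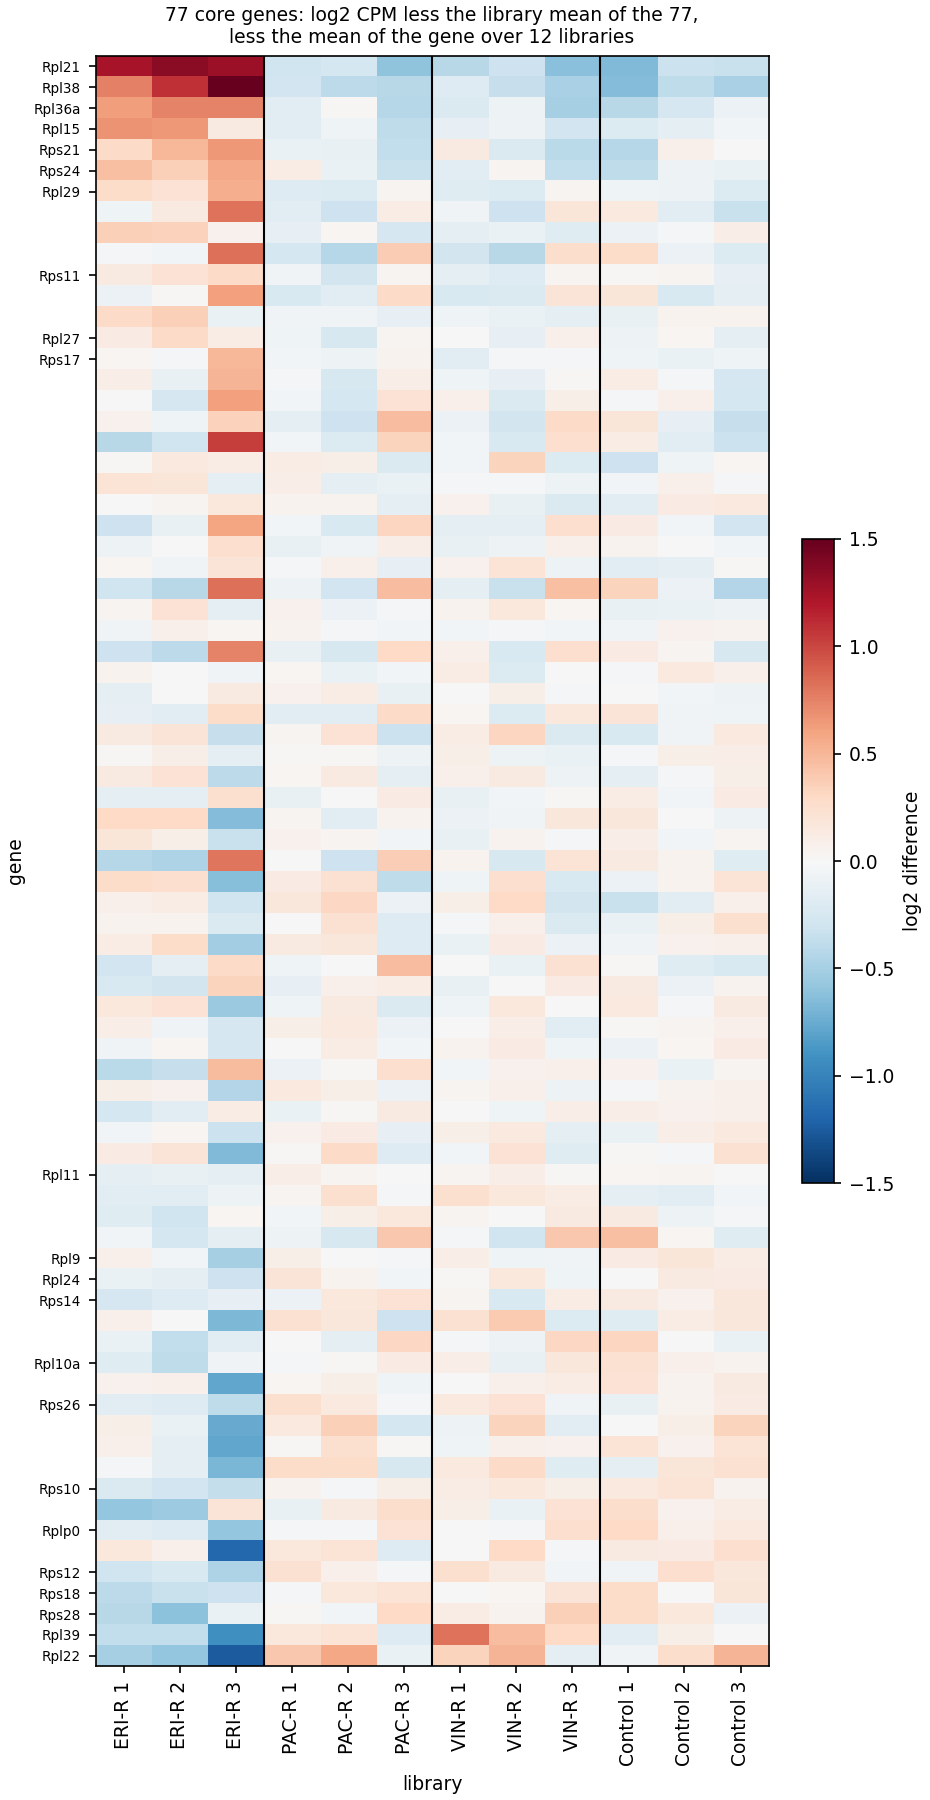
Log2 CPM of each of the 77 core genes (rows) in each library (columns), less the library's mean over the 77 and less the gene's mean over 12 libraries, with rows sorted by the ERI-R difference and names given for genes whose ERI-R and Control libraries did not overlap. Rpl21, Rpl38 and Rpl36a at the top are high in all 3 ERI-R libraries and Rpl22 at the bottom is low in all 3, while ERI-R 3 differs from ERI-R 1 and ERI-R 2 for many genes in between.

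Rpl21 made up 4.35%, 4.71% and 4.66% of the core counts in ERI-R, against 1.21%, 1.55% and 1.4998% in Control, and 1.25% to 1.58% in PAC-R and VIN-R. Unlike its level, this part was nearly equal in the 3 ERI-R libraries. Rpl38 made up 0.944%, 1.20% and 2.00% in ERI-R, against 0.369%, 0.448% and 0.408% in Control. With libraries scaled to the core total, a choice made after the data were seen, Rpl21 was higher in ERI-R than in Control by 1.69 ± 0.30 and Rpl38 by 1.76 ± 0.38 on the log2 scale, with edgeR adjusted p of 0.010 and 0.019. They were the only members called there, where 4.37% of all genes were higher and 4.29% lower. Against PAC-R and VIN-R the same scaling called the same 2 genes, where 4.65% and 5.55% of all genes were higher and 3.68% and 4.03% lower.

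Other members took a larger part of the pool in every ERI-R library than in every Control library without passing the edgeR test on that scale. Rpl36a, a large-subunit protein, held 1.12%, 1.21% and 1.26% in ERI-R and 0.558%, 0.638% and 0.698% in Control (adjusted p = 0.12 with edgeR). Rpl15, also of the large subunit and named after its values were seen, as were Rps24 here and Rps21, held 2.84%, 2.80% and 2.03% in ERI-R and 1.60%, 1.71% and 1.78% in Control. Rps24, a small-subunit protein mutated in some patients with Diamond-Blackfan anaemia, held 2.79%, 2.62% and 3.15% in ERI-R and 1.62%, 2.03% and 1.95% in Control. Rps21 of the small subunit held 0.664%, 0.771% and 0.886% in ERI-R and 0.418%, 0.599% and 0.554% in Control. After centring on the core mean, 10 of 77 core genes (13.0%) lay above all Control libraries in all 3 ERI-R libraries, against 7.74% of all genes, and 13 of 77 (16.9%) lay below, against 12.6% of all genes. Set against all 9 other libraries, 9 core genes (11.7%) lay above and 10 (13.0%) below, against 6.12% and 5.94% of all genes. The corresponding counts were 1 higher and 1 lower in PAC-R (backgrounds 0.506% and 8.03%) and 3 higher and 2 lower in VIN-R (backgrounds 1.24% and 6.96%). Centring takes the shift that the core genes share out of these genes and passes it to the others. The core mean was 8.73, 9.14 and 10.89 log2 CPM in the ERI-R libraries. The shares of core genes and of all genes on this scale are therefore not alike, and no excess can be read from them.

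Among members with a smaller part, Rpl22 stood out. It held 0.374%, 0.352% and 0.231% in ERI-R, against 0.528%, 0.665% and 0.774% in Control, and no PAC-R or VIN-R library was below 0.505%. Its log2 fold change in ERI-R against Control was -0.40 over all 12 libraries (edgeR adjusted p = 0.61). Over the 8 libraries with Lyz2 Rpl22 fell by 1.16 against Control, 1.25 against PAC-R and 1.37 against VIN-R (edgeR adjusted p of 0.026, 0.019 and 0.013). There 22.7%, 22.8% and 24% of all genes were called in either direction, and 10.7% were called lower against Control. With these 8 libraries scaled to the core total Rpl22 was not called against Control (15.6% of all genes called). It was called lower against PAC-R and VIN-R on that scale (15.5% and 17.4% of all genes called). Rplp0, the base of the stalk that recruits translation factors, held 2.57%, 2.54% and 2.02% in ERI-R and 3.68%, 3.21% and 3.28% in Control, while its partners Rplp1 and Rplp2 overlapped between the groups. Rpl39, a short protein of the large subunit's exit tunnel, held 0.587%, 0.587% and 0.417% in ERI-R cells, 0.883%, 0.904% and 0.701% in PAC-R, 1.41%, 1.08% and 0.985% in VIN-R and 0.700%, 0.846% and 0.776% in Control. Its part was below all others in ERI-R and above all others in VIN-R. The VIN-R difference from Control in level, not in part, was not called (0.82 on the log2 scale, edgeR adjusted p = 1.0). Over the 8 libraries with Lyz2 edgeR called Rpl39 lower in ERI-R than in VIN-R (24% of all genes called). The same held with these 8 scaled to the core total (17.4%) and without ERI-R 3 (19.9%).

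**Figure D4:**
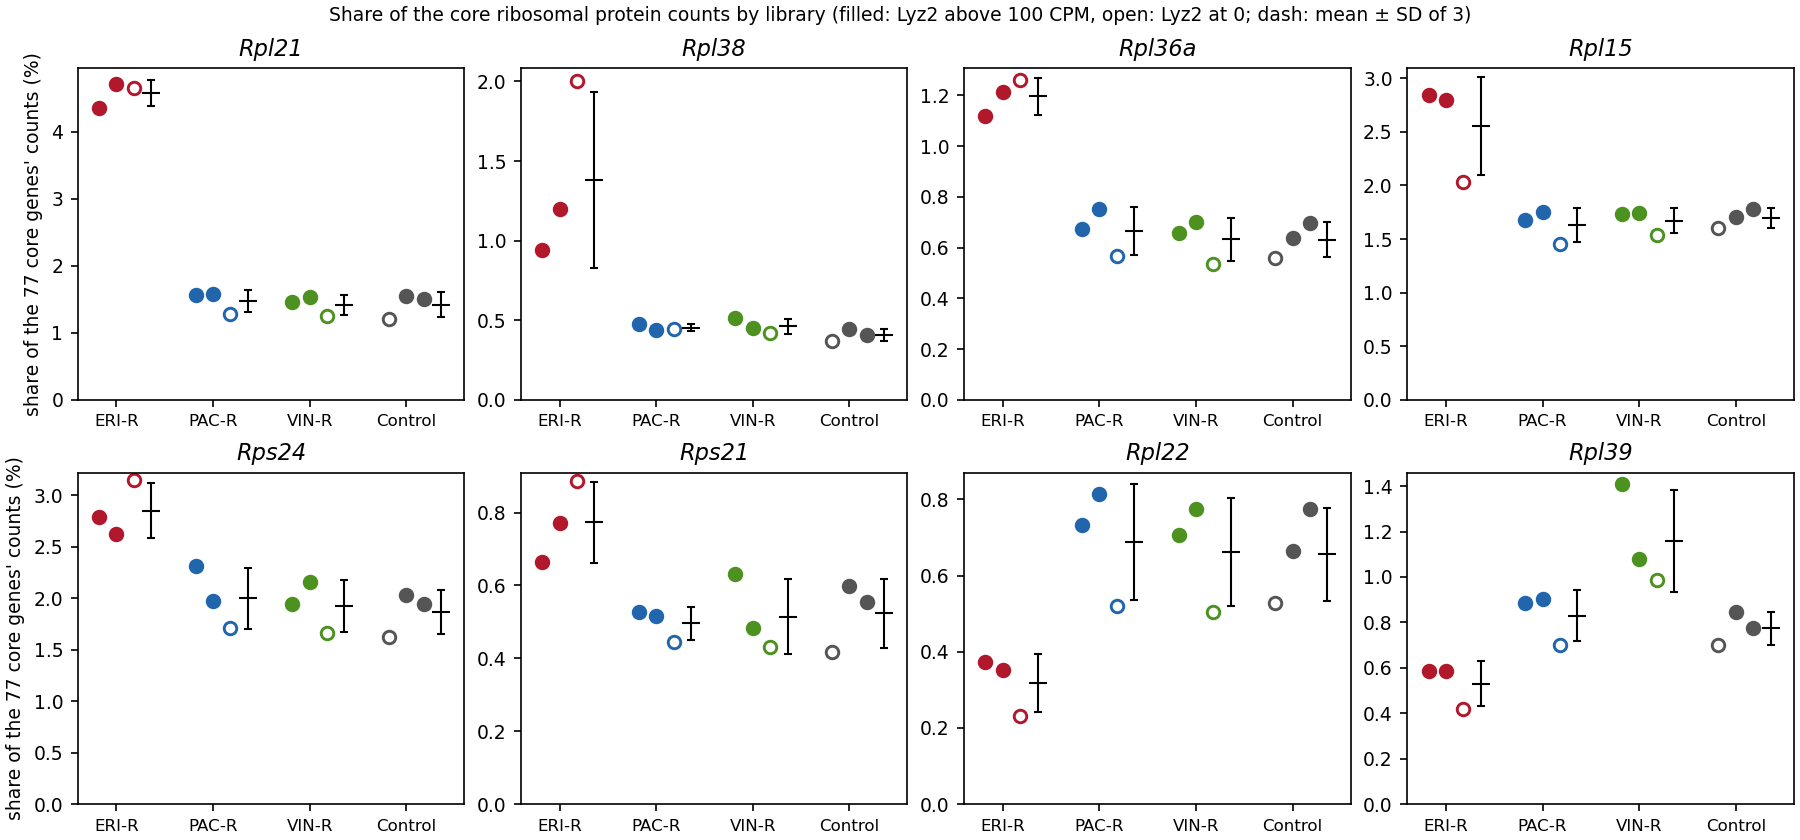
Percent of the counts of the 77 core genes held by 8 of them in each library, with the group mean and SD of 3 libraries beside the points. Rpl21 is at 4.35% to 4.71% in ERI-R and at most 1.58% elsewhere, Rpl22 is lowest in the 3 ERI-R libraries, and Rpl39 is lowest in ERI-R and highest in VIN-R.

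In ERI-R cells Rpl21 and Rpl38 sat among neighbours on the chromosome that were mostly higher as well. The part of position in their change was not tested. Within 2 Mb on either side of Rpl21, 28 of 30 other genes tested had a positive log2 fold change in ERI-R against Control, with a median of 1.54, and 17 (56.7%) were called higher and 0 lower, where the background of calls is 9.51% higher and 9.69% lower. Over all genes 49.8% were positive. Around Rpl38, 60 of 70 genes were positive, with a median of 1.17, and 33 (47.1%) were called higher and 0 lower. Around Rpl36a 9 of 26 genes were called higher and 4 lower, with a median of 0.89. Around Rpl22, on chromosome 4, 8 of 28 were positive, with a median of -0.57, and 2 were called higher and 7 lower. Rps27l did not share this feature: 12 of its 32 neighbours were positive, with a median of -0.21, and 4 were called higher and 1 lower. Nor did Rplp0 and Rpl39, whose part of the pool also stood apart. The neighbour medians were 0.48 around Rplp0 and 0.16 around Rpl39, both with a smaller part in ERI-R. Rpl15 and Rps21, with a larger part in ERI-R, had positive neighbour medians but calls in both directions. Around Rpl15 8 of 13 neighbours were positive, with a median of 0.24, and 2 were called higher and 2 lower. Within 1 Mb of it the median was 0.69, and 2 of 5 were called higher and 1 lower. Around Rps21 28 of 41 were positive, with a median of 0.30, and 4 were called higher and 5 lower. Rps24 depended on the window. Within 2 Mb of it 11 of 16 neighbours were positive, with a median of 0.84, and 6 were called higher and 0 lower. Windows of 1, 5 and 10 Mb around it gave medians of -0.13, 0.06 and 0.24.

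The same was read library by library, where the median over all genes tested lay at 0.0016, 0.0048 and -0.18 in the ERI-R libraries and between -0.068 and 0.022 in the others. Relative to the Control mean, the median log2 CPM of the 30 genes around Rpl21 was higher by 1.23, 1.299 and 2.19 in the ERI-R libraries and lay between -0.19 and 0.09 in the 9 others. For the 70 genes around Rpl38 it was 0.94, 1.00 and 1.87 in ERI-R and between -0.18 and 0.41 elsewhere. For the 28 genes around Rpl22 it was -0.80, -0.63 and -0.36 in ERI-R and between -0.20 and 0.34 elsewhere. Over the 8 libraries with Lyz2, 23 of 30 neighbours of Rpl21 and 38 of 70 neighbours of Rpl38 were called higher with edgeR, against 12% of all genes. Windows of 1, 5 and 10 Mb around Rpl21 gave medians of 2.13, 1.44 and 1.57, and around Rpl38 1.18, 1.22 and 0.81. In PAC-R and VIN-R cells the medians within 2 Mb of Rpl21 were 0.02 and 0.01 against Control. Around Rpl38 they were 0.13 and 0.20, with 53 of 70 neighbours positive in each, where 56.0% and 54.9% of all genes were positive, and none was called with edgeR. Around Rpl39 in VIN-R cells, 23 of 25 neighbours on chromosome X were positive, with a median of 0.37 and none called (background 0%), where 54.9% of all genes were positive.

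**Figure D5:**
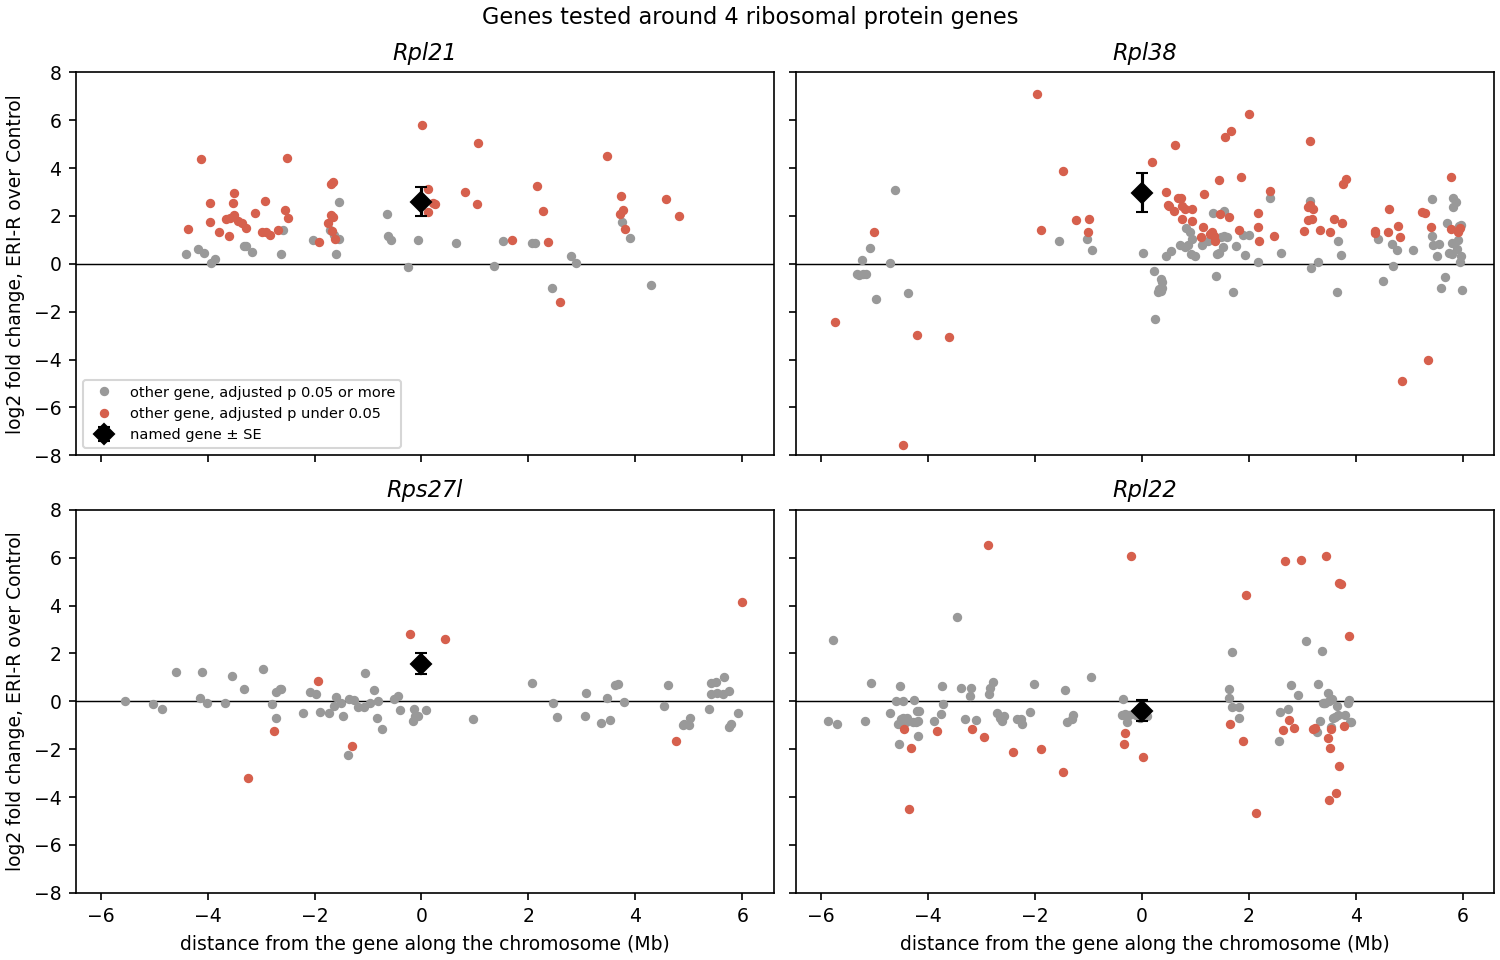
Log2 fold change of ERI-R over Control for the genes tested within 6 Mb of Rpl21, Rpl38, Rps27l and Rpl22, against their distance in Mb along the chromosome, with the named gene as a black diamond with its SE and called genes in red. Around Rpl21 and Rpl38 most points lie above 0 (medians of 1.54 and 1.17 within 2 Mb), around Rpl22 most lie below (median -0.57), and around Rps27l they straddle 0.

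Across the 77 core genes, the change in ERI-R against Control scaled to the core total and the median change of the neighbours within 2 Mb had Pearson's r of 0.70 and Spearman's rho of 0.49, with Rpl21 and Rpl38 at the top of the neighbour medians. For VIN-R r was 0.44 and for PAC-R 0.06. These values describe 77 genes in the same libraries, and neighbouring genes are not independent. The windows were chosen after the members' values were known, and copy number was not measured in these files. Many members have pseudogene copies that share reads. The -ps genes named after a member were set against the counts of that member and these genes together. They held at most 0.42% for Rpl21, 1.57% for Rpl38 and 9.41% for Rpl36a in any library. Copies under other names were not counted, so the sharing of reads may be larger. Of the members' expected counts 90.05% were not whole numbers, which RSEM gives where it divides shared reads, against 15.3% over all genes.

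Several ribosomal genes have a close paralog that can take the place of the main protein. Rpl22l1 is the paralog of Rpl22, and in mice the Rpl22 protein is known to bind the Rpl22l1 messenger RNA and hold its level down. Rpl22l1 over Rpl22 on the TPM scale was 0.961, 1.15 and 0.627 in ERI-R cells, 0.244, 0.337 and 0.179 in PAC-R, 0.331, 0.233 and 0.240 in VIN-R and 0.393, 0.363 and 0.341 in Control. The ERI-R ratios were above all 9 others, with a mean of 0.913 ± 0.266 against 0.366 ± 0.026 in Control (SD, n = 3 each). The exact two-sided permutation p was 0.1, the smallest that 3 libraries against 3 allow, as it was for PAC-R and VIN-R, whose ratios were lower than those of Control. Rpl22l1 itself was at 157, 231 and 283 CPM in ERI-R and 117, 114 and 126 CPM in Control, and its log2 fold change of 0.91 ± 0.39 was not called (edgeR adjusted p = 0.13). Rps27l over Rps27 was 0.329, 0.480 and 0.199 in ERI-R and 0.163, 0.162 and 0.153 in Control, with an exact p of 0.1. It was 0.194, 0.229 and 0.166 in VIN-R, also above every Control library (exact p of 0.1) and overlapping the ERI-R values. Rpl36al over Rpl36a was 0.235, 0.251 and 0.260 in ERI-R and 0.353, 0.348 and 0.275 in Control, with the same exact p. Rpl7l1 over Rpl7 and Rps27rt over Rps27 averaged 0.046 and 0.017 in ERI-R and 0.047 and 0.014 in Control, with exact p of 1.0 and 0.5. In all, 8 ratios were compared in 24 tests, and none can pass an adjusted threshold at this size.

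The balance between the subunits was also compared. Counts of large-subunit and stalk genes over those of small-subunit genes were 1.58, 1.60 and 1.55 in ERI-R cells, 1.502, 1.51 and 1.46 in PAC-R, 1.52, 1.56 and 1.49 in VIN-R and 1.44, 1.45 and 1.46 in Control. Each drug-selected line was above every Control library (exact permutation p of 0.1 for each, the smallest possible). Without Rpl21 alone the ratio averaged 1.46 ± 0.023 in ERI-R and 1.42 ± 0.0056 in Control (SD, n = 3 each). The ERI-R direction turned without Rpl21, Rpl38, Rpl36a and Rpl15, large-subunit genes with a larger part in ERI-R. The ratio was then 1.338, 1.343 and 1.299 in ERI-R, below every Control library (1.353, 1.348 and 1.354, exact permutation p of 0.1). PAC-R and VIN-R, with means of 1.39 and 1.42, stayed above every Control library.

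By length-corrected level, the most abundant members over the 12 libraries were Rps24, Rpl23a, Rpl32, Rps27, Rpl38 and Rpl41, with means of 5035, 4452, 3748, 3703, 3657 and 3654 TPM. Rpl38 and Rpl41 owed their place to ERI-R 3, with 16552 and 11821 TPM there and at most 5359 and 5701 TPM in any other library. The lowest tested were Rps19bp1, Rps27rt, Rpl7l1 and Rpl22l1, with means of 44.8, 57.0, 82.9 and 568 TPM. Several members with known roles outside the ribosome were not called in ERI-R against Control. Rpl5 and Rpl11, which bind the p53 inhibitor Mdm2 when ribosome assembly fails, had log2 fold changes of 0.21 ± 0.43 and 0.70 ± 0.60. Rps6, the substrate of S6 kinases, had 0.63 ± 0.52, Rps27a, made as a fusion with ubiquitin, 0.73 ± 0.48, and Rpsa, also known as a laminin receptor, 0.93 ± 0.70, all with edgeR adjusted p between 0.35 and 0.81.

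Genes that serve the ribosome outside the member rule gave few calls. Fau, which encodes a small-subunit protein fused to a ubiquitin-like protein, had 1.18 ± 0.84 in ERI-R against Control, and Rack1, a scaffold on the small subunit, 0.30 ± 0.58, neither called with edgeR. Of 78 mitochondrial ribosomal protein genes 4 rose and 0 fell (Mrpl58 by 2.76, Mrps7 by 2.27, Mrpl38 by 2.07 and Mrps26 by 2.05), with a median of 0.85. The 78 genes held 0.231%, 0.300% and 0.692% of counts in the ERI-R libraries and 0.235%, 0.207% and 0.192% in Control. ERI-R 3 was thus far the highest, and ERI-R 1 lay within the Control range. Mrpl58, Mrps7 and Mrpl38 lie 0.738, 0.936 and 1.46 Mb from Rpl38. Of 15 RNA polymerase I genes Polr1d alone was called (2.505 ± 0.59, edgeR adjusted p = 0.012), and it lies 0.259 Mb from Rpl21. Of 11 small nucleolar RNA host genes tested Snhg20 alone was called (3.04 ± 0.70, edgeR adjusted p = 0.011), 2.41 Mb from Rpl38. Of 33 translation factors and related messages Eif3b rose by 2.08, 6.404 Mb from Rpl21, and Tpt1 and Eif4b fell by 1.24 and 1.03, while Eef1a1, Eef2 and Pabpc1, with -0.60, -0.96 and -0.18, were not called. Of 32 ribosome biogenesis genes Nop14 rose by 1.29 and Gnl3 by 0.82 and 0 fell, and Npm1 was at -0.10. Of 19 mTOR and Myc regulators Mxd4, an antagonist of Myc, rose by 3.33, and Mnt, Mtor and Tsc1 fell by 1.78, 1.26 and 0.84. Mtor lies 3.83 Mb from Rpl22, and Myc itself, at -0.64 ± 0.30, was not called. Beside these counts stands the same background of 9.51% higher and 9.69% lower, and against Control edgeR called none of these genes in PAC-R or VIN-R cells, where it called no gene of the table.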

How the data were processed

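Libraries were made from polyA RNA (200 ng input, paired-end reads of 76 bases, per the labels' protocols). The submitters' processing notes name bcl2fastq 2.20.0.422, cutadapt 2.4, STAR 2.7.2b, RSEM 1.3.2 and GRCm38, without roles. For annotation and strand, nothing is given in the sources used. The authors deposited expected counts and TPM per gene from RSEM, and gene identifiers were matched to symbols and biotypes with GENCODE M21. Expected counts were rounded and fitted with edgeR 4.0.16 in R 4.3.3: TMM scaling, filterByExpr (14226 genes tested), a robust quasi-likelihood fit with 1 mean per group over all 12 libraries, and Benjamini-Hochberg adjustment over all genes, called under 0.05. SEs were taken as the log2 fold change over the square root of F. Shares and ratios were compared by exact permutation tests. DESeq2 1.42.0, other scalings, filters and library sets were alternatives. Same-numbered libraries deviated together for ERI-R with PAC-R (r of 0.61 to 0.76 over 3 pairs) and for PAC-R with VIN-R (0.22 to 0.92). The block is given for the first beside its result. Differently numbered libraries with Lyz2 also did, with r of 0.57 and 0.70 for ERI-R with PAC-R and 0.18 and 0.87 for PAC-R with VIN-R. Pairs of a library with Lyz2 and a library without it were negative there (-0.91 to -0.23). These values therefore do not show that the numbers mark pairs, and no source says what they mark. The fit was tested on simulated counts with a dispersion of 0.02 and a 4-fold change in 200 genes. It recovered 100% of these, and 4.31% of its calls were false. The libraries spread more widely, with a common biological coefficient of variation of 0.59. That test therefore does not show how the fit performs on them. The members, gene lists and tests were chosen with earlier results of these data known. Named genes are the highest and lowest by TPM, those called, those with the largest and smallest spread after centring, paralog pairs, members with roles outside the ribosome and called genes of other lists. Some genes that the rule names are not reported here. Counts of 0 and their limits (3 counts) cover counting error only.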

Additional observations from a re-analysis of the deposited data

How the results depend on the processing

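The share of counts in ribosomal protein genes turned direction over the 8 libraries with Lyz2: -0.134 points for ERI-R minus Control, -0.236 for PAC-R minus Control, -0.622 for ERI-R minus VIN-R and -0.724 for PAC-R minus VIN-R. Leaving out 1 library moved these differences over -0.499 to 5.94 (ERI-R minus Control), -0.600 to 1.90 (PAC-R minus Control), -1.42 to 5.01 (ERI-R minus PAC-R), -1.19 to 5.24 (ERI-R minus VIN-R) and -1.29 to 1.21 points (PAC-R minus VIN-R), the last also turning without VIN-R 2 (-0.722). VIN-R minus Control ranged over 0.124 to 1.65 points.

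The median log2 fold change of the members was -0.24 for ERI-R against Control and -0.43 for ERI-R against VIN-R over the 8 libraries with Lyz2. With 1 library left out it ranged over -0.28 to 1.21 (ERI-R against Control), -0.58 to 0.94 (ERI-R against PAC-R), -0.50 to 0.98 (ERI-R against VIN-R), -0.093 to 0.48 (PAC-R against Control), 0.077 to 0.42 (VIN-R against Control) and -0.32 to 0.24 (PAC-R against VIN-R). The count of members called for ERI-R against Control ranged from 0 to 8 with 1 library left out (12.6% to 19.7% of all genes called), and was 0 with only the libraries of both groups (12.8%) and 6 with DESeq2 (13.3%). For ERI-R against PAC-R it ranged from 0, without PAC-R 1 or PAC-R 2, to 5 (12.6% to 20.01%) and was 0 with only both groups' libraries (9.25%) and 1 with no filter (8.93%). For ERI-R against VIN-R it ranged from 0, without VIN-R 2 or VIN-R 3, to 5 (13.8% to 19.9%), with Rpl22l1 the 1 call without VIN-R 1. It was 0 with only both groups' libraries (11.02%), 4 over the 8 libraries with Lyz2 (24%), 4 with these scaled to the core total (17.4%) and 4 with DESeq2 (13%). The median spread was 0.64 without centring. The cause of these changes was not tested.

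Over all groups, same-numbered libraries did not consistently deviate together (r from -0.86 to 0.92 over 18 pairs, 11 above 0.1), and every comparison with Control held negative pairs. With replicate number as a block, 2, 1 and 1 members were called for ERI-R against Control, PAC-R and VIN-R (18.7%, 18.3% and 18.6% of all genes), and Rpl38 lost its call in all 3. The common biological coefficient of variation was 0.59.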
